A study of Mus musculus with 84 samples.

Results

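HNF4α sites that carried no H3K27ac in mouse colon epithelium were examined. The 4 deposited HNF4α ChIP-seq peak lists were combined by joining peaks with 1 bp or more in common, which gave 49525 sites, and 22141 of these had a peak in at least 2 of the 4 libraries. Of the 22141, the 1435 sites (6.48%) that overlapped no peak in any of the 23 deposited H3K27ac lists are described here, and the other 20706 are called HNF4α sites with H3K27ac. The presence of HNF4α and the absence of H3K27ac chose the 1435 sites, so both are given as description and neither is tested.

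All animals were C57BL/6 mice that entered the diets young, and every sample was labelled colon epithelium. By the methods, epithelial cells were shaken off colon pieces in EDTA, whereas cells for the recipients' RNA-seq were scraped from the colon. HNF4α was mapped in males on a high fat diet (HFD) or a low fat diet (LFD), with 2 libraries per diet. H3K4me1 was mapped in males and in females on each diet, with 3 libraries per sex and diet, 12 in all. H3K27ac was mapped in the same 4 groups, with 3 libraries each, and in formerly germ-free male recipients of bacteria from male donors on the HFD (HFB) or the LFD (LFB), which were themselves fed either diet: HFDHFB (2 libraries), HFDLFB, LFDHFB and LFDLFB (3 libraries each). By the methods, the HFD and LFD mice that were not recipients stayed on their diets for longer than the recipients were given bacteria. Theirs are called the long-term diets here. RNA-seq was available only for the recipients, with 3 libraries per group, so levels of RNA and binding of HNF4α come from different mice. The RNA-seq libraries held 39904191 to 48026846 counted reads each. The peak lists hold no score or read number, so how deeply the ChIP-seq was sequenced is not known. The labels name replicates but not the animals behind them, and the p-values measure the spread between these libraries only.

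HNF4α is a nuclear receptor that binds DNA as a homodimer and is a main regulator of epithelial genes of gut, liver, kidney and pancreatic islet. It prefers direct repeats spaced by a single base and has a core, CAAAGTCCA, that most other nuclear receptors bind less well. H3K27ac lies on nucleosomes beside active enhancers and promoters. H3K4me1 lies at enhancers whether they are active or poised, so a site with H3K4me1 and without H3K27ac is often called a poised enhancer.

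To show what the bound DNA looks like, 120 bp around the core nearest to the centre is printed for the sites below, on the strand that reads CAAAGNNCA, with every CAAAGNNCA match in capitals. Coordinates are of mm9 (NCBIM37). The first 4 had a peak in all 4 HNF4α libraries and H3K4me1 in 12 of 12 libraries, held the core and lay farthest from any H3K27ac peak among the 35 sites that met these conditions. They are an intergenic site 170 kb upstream of Arhgap24 (chr5:102740688-102740807, minus strand), an intergenic site 199 kb downstream of the start of Frk (chr10:34401957-34402076, minus strand), one 64.6 kb downstream of that of Sycp2 (chr2:178077499-178077618, plus strand) and one 113 kb downstream of that of Parp8 (chr13:117570607-117570726, plus strand).
Arhgap24 site: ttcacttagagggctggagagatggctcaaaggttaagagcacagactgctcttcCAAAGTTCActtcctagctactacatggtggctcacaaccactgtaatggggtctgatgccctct
Frk site: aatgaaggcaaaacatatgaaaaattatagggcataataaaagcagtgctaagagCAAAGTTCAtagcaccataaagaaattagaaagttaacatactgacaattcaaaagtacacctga
Sycp2 site: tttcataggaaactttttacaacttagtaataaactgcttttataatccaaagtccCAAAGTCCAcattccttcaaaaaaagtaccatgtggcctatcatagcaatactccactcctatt
Parp8 site: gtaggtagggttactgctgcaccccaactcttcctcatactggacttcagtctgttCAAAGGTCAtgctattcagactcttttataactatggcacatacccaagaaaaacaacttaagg
Their nearest H3K27ac peaks lay 128, 91.9, 70.3 and 69.0 kb away, in the same order. These sites with H3K4me1 thus lay far from H3K27ac and bound HNF4α in both diets.

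The opposite case is a site with HNF4α in all 4 libraries and with neither mark in any library, of which there were 23. In 13 of these 23 the 200 bp window held the core, and 1 of the 23, near a chromosome end, had no window. The 4 farthest from H3K27ac lay near Gm3701 on the X chromosome, where no core was found, and near Gm16391, Dnahc7b and March1, where it was. The last 3 are printed because HNF4α was called there in every library while neither histone mark was called (chr17:77188854-77188973, minus strand, chr1:46359271-46359390, minus strand and chr8:68850425-68850544, minus strand, respectively).
Gm16391 site: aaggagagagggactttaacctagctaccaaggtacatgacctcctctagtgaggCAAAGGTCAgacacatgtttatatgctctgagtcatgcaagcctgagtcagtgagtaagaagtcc
Dnahc7b site: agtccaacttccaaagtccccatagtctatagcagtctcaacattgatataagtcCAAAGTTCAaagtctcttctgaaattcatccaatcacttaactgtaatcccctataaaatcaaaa
March1 site: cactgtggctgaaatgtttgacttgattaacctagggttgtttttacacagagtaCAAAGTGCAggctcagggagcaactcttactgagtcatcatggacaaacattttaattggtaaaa
Distances to the nearest H3K27ac peak were 209, 102 and 57.0 kb, respectively. The sites near Dnahc7b and March1 are intronic and the one near Gm16391 is intergenic.

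The Dnahc7b site belongs to a group of HNF4α sites with similar sequence, described further on, and 4 more of that group are printed to show how close the copies are. The sites near Treh (chr9:44466816-44466935, minus strand) and Trh (chr6:92227402-92227521, plus strand) carried no H3K27ac, whereas those near Ppp2r5c (chr12:111680536-111680655, minus strand) and Pcsk1 (chr13:75361452-75361571, minus strand) carried it in all 23 lists. All 4 had HNF4α in 4 of 4 libraries.
Treh site, without H3K27ac: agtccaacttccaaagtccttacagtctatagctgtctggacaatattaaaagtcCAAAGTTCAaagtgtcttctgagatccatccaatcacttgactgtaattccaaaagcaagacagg
Trh site, without H3K27ac: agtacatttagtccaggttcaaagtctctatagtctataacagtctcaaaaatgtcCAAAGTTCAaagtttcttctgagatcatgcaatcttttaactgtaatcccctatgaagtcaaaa
Ppp2r5c site, with H3K27ac: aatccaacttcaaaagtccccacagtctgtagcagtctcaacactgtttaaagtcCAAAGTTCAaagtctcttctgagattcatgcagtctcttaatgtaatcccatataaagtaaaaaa
Pcsk1 site, with H3K27ac: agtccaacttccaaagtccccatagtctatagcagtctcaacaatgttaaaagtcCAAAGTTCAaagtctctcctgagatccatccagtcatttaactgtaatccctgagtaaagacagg
The capitals spell the same core, CAAAGTTCA, in all 4, and in each the end of the core runs into a further CAAAG. H3K4me1 was present in 12 of 12 libraries at the Treh, Ppp2r5c and Pcsk1 sites and in 10 of 12 at the Trh site.

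The share of sites without H3K27ac was lower the more libraries had the HNF4α peak. It was 44.2% of 27384 sites seen in 1 library, which were not taken, 10.2% of 8081 in 2 libraries, 6.97% of 5566 in 3 and 2.61% of 8494 in 4. Of the 1435 sites, 825 had a peak in 2 libraries, 388 in 3 and 222 (15.5%) in all 4, against 39.9% in all 4 among sites with H3K27ac. Per library, 980 of the sites had a peak in HFD replicate 1, 797 in HFD replicate 2, 1249 in LFD replicate 1 and 676 in LFD replicate 2. LFD replicate 1 was also the longest list, with 27766 peaks against 21308 to 22640 in the others. Without it, and with a peak in 2 of the remaining 3 libraries required, 781 sites met the rule instead of 1435.

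Most of the sites lay more than 1 kb from any acetylated region. The nearest H3K27ac peak lay at a median of 9.27 kb (quartiles 2.76 and 28.4 kb), 166 sites (11.6%) had one within 1 kb and 116 (8.08%) had none within 100 kb. Just inside the threshold, 72 sites lay within 200 bp of an H3K27ac peak, and H3K4me1 covered 79.3% ± 4.90 of them per library (SD, n = 12). Just outside it, 538 sites overlapped H3K27ac in 1 of the 23 lists and H3K4me1 covered 83.7% ± 3.54 of these (SD, n = 12). At the other end, 12027 HNF4α sites had H3K27ac in all 23 lists.

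Most of these sites had an HNF4α peak in both diets, which the rule favours. A site with a peak in more than 2 libraries always has one in each diet. A peak in at least 1 library of each diet was found at 1214 sites (84.6%), in both HFD libraries and neither LFD library at 86 (5.99%), and in both LFD libraries and neither HFD library at 135 (9.41%). Over all 22141 sites these 2 classes made up 4.2% and 7.06%. Only sites in exactly 2 libraries can fall into these classes, and the sites without H3K27ac held 825 of them. The sites with H3K27ac held 7256, of which 843 were HFD-only and 1429 LFD-only. The rule used the same peaks and there were 2 libraries per diet, so no test was made and nothing is read from these shares. Of the HFD-only sites, those with H3K4me1 in 12 of 12 libraries and farthest from H3K27ac lay in introns of D430041D05Rik and of Bmp6, which encodes a bone morphogenetic protein. Of the LFD-only sites they lay 125 kb upstream of Igf1, the insulin-like growth factor, and 144 kb upstream of Slc35f3.

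H3K4me1 was found at most of the sites, and at fewer of them than at HNF4α sites with H3K27ac. In males, the percentage of sites with an H3K4me1 peak was 67.2, 55.5 and 66.8 in the 3 HFD libraries and 63.3, 67.5 and 66.5 in the 3 LFD libraries. In females it was 63.8, 63.8 and 60.4 on the HFD and 57.3, 57.6 and 57.4 on the LFD. At sites with H3K27ac it ran from 89.2 to 91.5, so the 2 classes did not overlap. The means were 62.2% ± 4.43 and 90.6% ± 0.644 (SD, n = 12), a difference of -28.4 ± 3.93 percentage points that was lower in 12 of 12 libraries (two-sided exact sign-flip permutation test, p = 0.000488, the smallest that 12 libraries allow). After Benjamini-Hochberg adjustment over the 8 tests between libraries made here, p was 0.000781. Among sites in all 4 HNF4α libraries the difference was -26.2 percentage points, and among sites with no transcription start site (TSS) of a protein-coding gene within 5 kb it was -36.0. At positions 10 kb away, H3K4me1 was found for 13.6% to 15.5% of these sites and for 34.6% to 37.0% of sites with H3K27ac, so the surroundings of the classes differed as well.

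**Figure D1:**
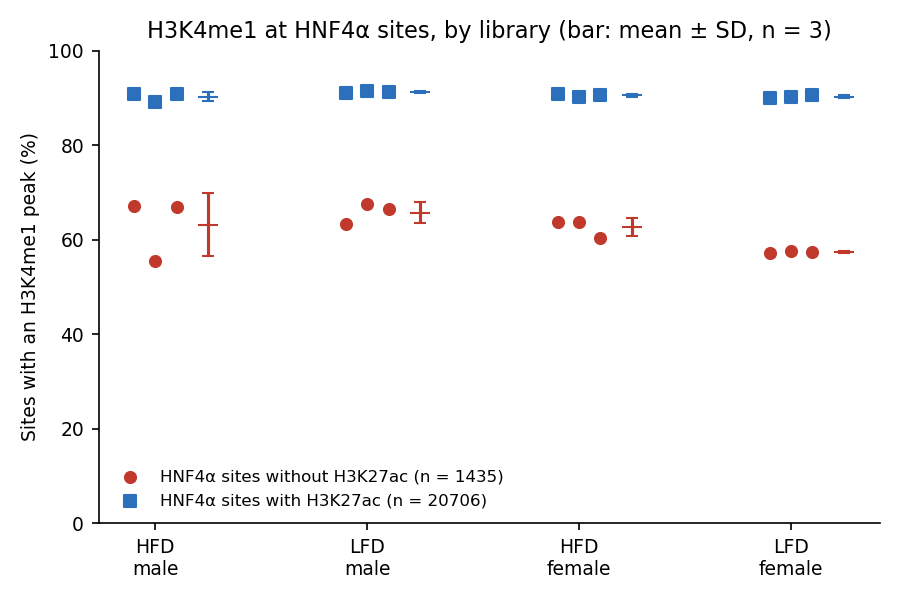
Each point is 1 H3K4me1 library, grouped by sex and diet, and the y axis gives the percentage of HNF4α sites that overlap an H3K4me1 peak in it. Bars show the mean ± SD of 3 libraries. Sites without H3K27ac (red circles) lie between 55.5% and 67.5% and sites with H3K27ac (blue squares) between 89.2% and 91.5%.

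Single sites fell into 3 classes by the number of libraries with H3K4me1. At 454 sites (31.6%) it was found in 12 of 12 libraries, at 772 (53.8%) in 1 to 11 and at 209 (14.6%) in none. The corresponding shares at sites with H3K27ac were 81.5% in all and 2.29% in none. The uniform class was thus the largest class of acetylated sites, whereas the variable class was the largest here. The class with H3K4me1 in all libraries had HNF4α in all 4 libraries at 17.6% of its sites and lay at a median of 7.76 kb from H3K27ac. In the class without H3K4me1, HNF4α was called in all 4 libraries at 23 of 209 sites, and the median distance was 14.3 kb.

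**Figure D2:**
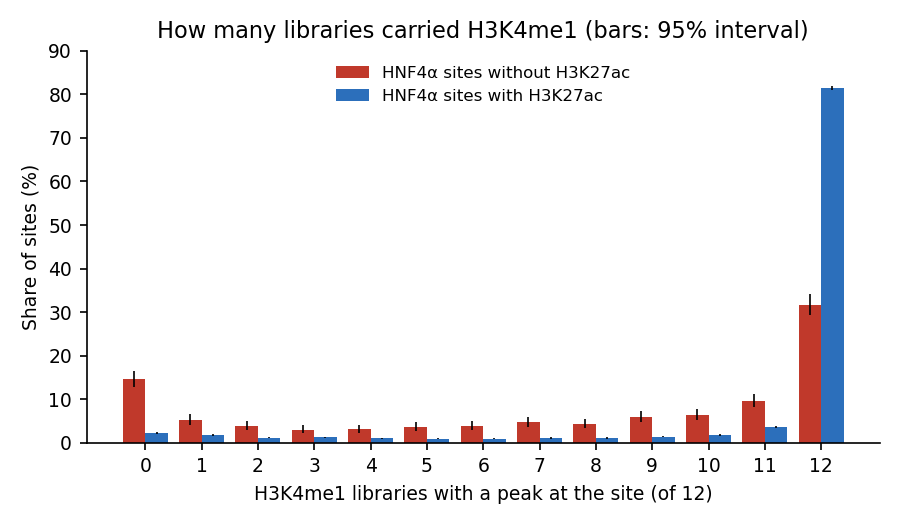
The x axis gives the number of the 12 H3K4me1 libraries with a peak at a site and the y axis the share of sites in percent, with 95% Clopper-Pearson intervals. Sites without H3K27ac (red) spread over all numbers, with 14.6% at 0 and 31.6% at 12, and 81.5% of sites with H3K27ac (blue) stand at 12.

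The H3K4me1 peaks over the sites were narrow. Their median width was 1600 to 1800 bp over the 12 libraries, against 4600 to 5000 bp at sites with H3K27ac, and it was smaller in 12 of 12 libraries (two-sided exact sign-flip permutation test on the log2 width, p = 0.000488, adjusted p = 0.000781). In 15.1% to 18.4% of these peaks, H3K27ac lay elsewhere in the same H3K4me1 peak. Peak width depends on the SICER window and gap, which were the same in all H3K4me1 libraries.

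The H3K4me1 share of these sites did not pass the test for a difference between diets. HFD minus LFD was 1.32 percentage points with diets permuted within each sex (two-sided exact permutation test, 400 arrangements, p = 0.635). In males it was -2.60 percentage points (exact p = 0.8), and the ranges of the diets overlapped. In females it was 5.25 (exact p = 0.1, the smallest that 3 libraries against 3 allow), and every HFD library lay above every LFD library. The difference between the diet effects of females and males, 7.85 percentage points, did not pass the threshold either (exact permutation test, p = 0.1, adjusted p = 0.114). Diets were permuted within each sex, so this tests against no diet effect in either sex and not against equal effects. The difference was 4.01 without HFD male replicate 2 (exact p = 0.21), where the male effect turned to 1.24, and 9.86 and 9.69 without HFD male replicate 1 or 3 (exact p = 0.04 and 0.045). Males exceeded females by 4.44 percentage points (exact permutation test within diet, p = 0.08, adjusted p = 0.107). HFD male replicate 2, the lowest of the 12 libraries, also decided the pooled diet result and the sex result. Without it the diet difference was 3.25 percentage points (exact permutation test, p = 0.035) and the sex difference 6.36 (exact permutation test, p = 0.005, the smallest its arrangements allow).

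The H3K4me1 share of the sites moved closely with how much of the genome each library's H3K4me1 peaks covered, from 219 Mb in HFD male replicate 2 to 240 Mb in HFD male replicate 1. Over the 12 libraries, Pearson's r was 0.984 and Spearman's rho 0.963 (permutation test, p = 2e-05 for each, the smallest that 100000 permutations give). Without the 2 libraries farthest from the median, r was 0.974. Within the 6 male libraries r was 0.999 and within the 6 female libraries 0.957. Both values come from the same H3K4me1 peaks of each library and are not independent, so these p-values cannot show a separate relation. The read depth of the ChIP-seq libraries is not in the files, and its part in the diet and sex differences was not tested.

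**Figure D3:**
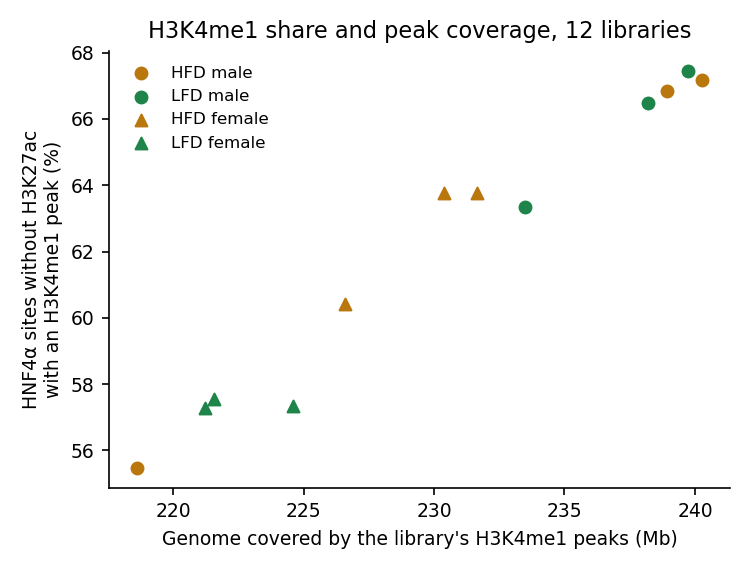
Each point is 1 of the 12 H3K4me1 libraries. The x axis gives the Mb covered by its peaks and the y axis the percentage of HNF4α sites without H3K27ac that have an H3K4me1 peak in it. Colours give the diet and symbols the sex. The points rise together (r = 0.984), with HFD male replicate 2 at the lower left.

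Within a sex, few sites had H3K4me1 in every library of 1 diet and in none of the other. Sites at which the 3 libraries of a diet had H3K4me1 and the 3 of the opposite diet lacked it numbered, in males, 1 for the HFD and 4 for the LFD, and in females 8 for the HFD and 2 for the LFD. Over all 22141 HNF4α sites the same calls were made at 0.0316%, 0.14%, 0.172% and 0.0948%, respectively. As shares of the 1435 sites the counts are 0.0697%, 0.279%, 0.557% and 0.139%. Sites with H3K4me1 in exactly 3 of the 6 libraries of a sex, which alone can be such calls, numbered 91 in males and 113 in females. Among sites with H3K27ac they numbered 353 in males, with 6 calls for the HFD and 27 for the LFD. In females they numbered 439, with 30 and 19 calls. The shares of all sites therefore rest on unlike numbers of eligible sites, and no excess is read from them.

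The sites lay away from genes. Of the 1435, 890 (62.0%) were intergenic, 488 (34.0%) intronic, 24 (1.67%) in a promoter (from 1000 bp before to 100 bp after the TSS of a protein-coding transcript), 19 in coding exons and 14 in UTR exons. Among HNF4α sites with H3K27ac, 41.3% were intergenic and 14.9% in promoters. The median distance to the nearest TSS was 30.4 kb, against 14.0 kb. A TSS lay within 5 kb of 159 sites (11.1%, 95% interval 9.50% to 12.8%), against 31.1% (30.5% to 31.7%). H3K27ac is a mark of active promoters and the rule required its absence, so this place is not independent of the rule and was not tested. On the X chromosome 61 of the HNF4α sites had no H3K27ac, or 12.1%, against 4.86% to 8.85% on the other chromosomes that held any. An HNF4α site with H3K27ac lay within 50 kb of 771 sites (53.7%), and another site without it within 50 kb of 176 (12.3%). Of the sites with H3K27ac, 85.3% had another such site within 50 kb and 8.30% had a site without it.

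The 24 promoter sites included 10 with a peak in at least 3 HNF4α libraries. Among the first 6 by distance to the TSS were those at Aspdh (5 bp), C9 (62 bp), Otx2 (89 bp), Ttn (193 bp) and Gm11127 (241 bp). C9 encodes a complement component made mainly by liver, Otx2 a homeodomain factor of the developing brain and eye, and Ttn the giant sarcomere protein titin. H3K4me1 was found at these 5 in 1, 12, 12, 4 and 0 of 12 libraries, respectively. The C9 site lay 5 bp from an H3K27ac peak and the Aspdh site 870 bp, whereas the Otx2 site lay 178 kb from the nearest. The promoter site of Ttn is shown as one that holds the core (chr2:76818349-76818468, minus strand).
Ttn promoter site: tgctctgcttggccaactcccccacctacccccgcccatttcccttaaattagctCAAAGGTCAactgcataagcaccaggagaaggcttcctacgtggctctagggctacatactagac
The core reads CAAAGGTCA here and follows a C-rich stretch.

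The HNF4α core was found at a larger share of these sites than of sites with H3K27ac. In the 200 bp around the centre, CAAAGNNCA, in which N is any base, matched on either strand at 604 of 1434 sites (42.1%, 95% interval 39.5% to 44.7%), against 27.9% (27.3% to 28.5%) of sites with H3K27ac. One site near a chromosome end had no window. In windows 1000 bp away the shares were 4.88% and 5.12%. By library, the sites exceeded those with H3K27ac by 13.8 and 13.1 percentage points in the HFD libraries and by 13.5 and 12.9 in the LFD libraries; the 4 libraries share most of their sites, and no test was made. The share was higher at sites in more HNF4α libraries, from 38.5% in 2 to 44.1% in 3 and 52.0% in 4, and at each number it was above that of sites with H3K27ac (18.9%, 25.6% and 37.2%). The strict core CAAAGTCCA was found at 12.8% and 7.41%, respectively. GGNCAAAG, the first part of the direct repeat, was found at 16.5% (14.6% to 18.5%) and 15.4% (14.9% to 15.9%), with intervals that overlap. In 2, 3 and 4 HNF4α libraries it was found at 15.0%, 18.8% and 17.6% of the sites. The shares of sites with H3K27ac were 10.8%, 14.5% and 19.9%, so the larger share of the core did not extend to this element. Away from gene starts, with no TSS within 5 kb, CAAAGNNCA was found at 42.0% and 30.6%. These intervals cover counting error only.

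**Figure D4:**
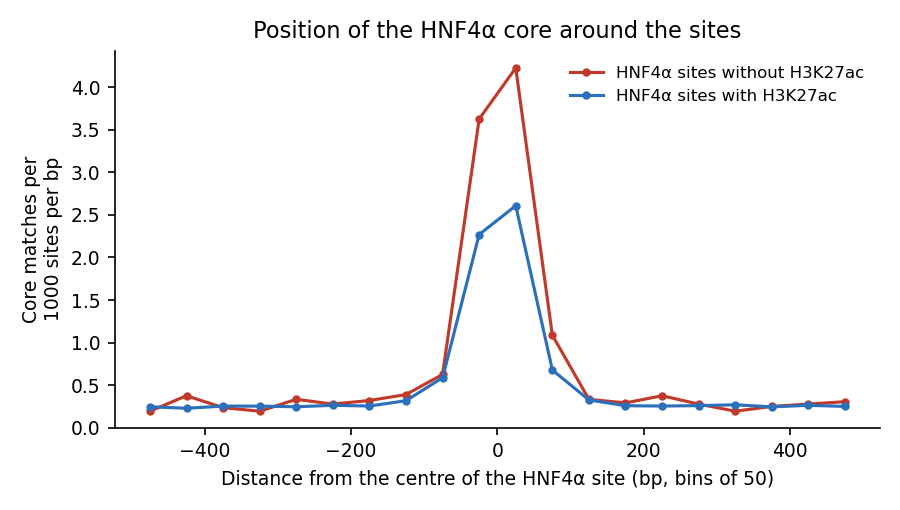
The x axis gives the distance from the centre of the HNF4α site in bins of 50 bp and the y axis CAAAGNNCA matches per 1000 sites per bp, on either strand. Both classes of site peak at the centre and fall below 0.4 beyond 100 bp on either side, and sites without H3K27ac (red) peak higher than sites with H3K27ac (blue).

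Other motif cores differed by fewer percentage points, although in proportion the rare ETS core differed more. TGANTCA, the core of AP-1, a dimer of Fos and Jun proteins, was found at 15.1% of the sites and 16.7% of sites with H3K27ac, with 95% intervals that overlap. TTTATNGC, of the intestinal factor CDX2, was found at 9.21% and 7.42%. GGGNGTGG, of KLF factors, was found at 9.97% and 13.3%, and CCGGAAGT, of ETS factors, at 0.349% and 1.29%. The last 2 cores are rich in G and C. The median GC content of the windows was 44% and 47.5%, with a mean of 2.08 and 4.63 CpG per 200 bp. AGNNGGCNC, a core of the insulator protein CTCF, was found at 17.8% (95% interval 12.8% to 23.7%) of the 208 windows without H3K4me1 in any library, at 9.20% of those with it in 1 to 11 and at 9.03% (6.56% to 12.1%) of those with it in 12, against 11.1% of sites with H3K27ac. The CDX2 core had the opposite order, with 5.77%, 8.29% and 12.3%. In windows 1000 bp away, the CTCF core was found at 9.62%, 7.97%, 8.37% and 9.47%, respectively, close to its shares at the last 3 sets. The CDX2 core was found there at 1.68%, 2.59% and 1.76%. These 2 cores were singled out of 12 after their values were seen, and no test was made.

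Similar sequences recurred among the sites. By blastn, with at least 100 bp aligned at 80% identity or more, 147 of the sites (10.3%) fell into groups with other HNF4α sites, against 2.93% of sites with H3K27ac. The largest group held 218 sites on 21 chromosomes, 85 of them (39.0%) without H3K27ac. In this group CAAAGNNCA was found at 187 sites (85.8%), and 172 (78.9%) held the form CAAAGTTCA, which 7.26% of the other sites without H3K27ac held. It includes the Treh and Trh sites printed above. Without the group, the core share was 39.1% against 27.5%.

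Within this group, sites of similar sequence differed in the marks they carried. H3K27ac was found in all 23 lists at 16 sites, in 6 to 22 at 74, in 1 to 5 at 43 and in none at 85. HNF4α was called in all 4 libraries at 28 (32.9%) of the 85 sites without H3K27ac and at 95 (71.4%) of the 133 with it. H3K4me1 was found per library at 39.9% ± 5.62 of the 85 and at 93.8% ± 3.42 of the 133 (SD, n = 12), and the difference of -53.9 ± 3.48 percentage points had the same sign in 12 of 12 libraries (two-sided exact sign-flip permutation test, p = 0.000488, adjusted p = 0.000781). Both classes lay at like distances from gene starts, at medians of 21.7 and 21.0 kb. In mm9, 2482 stretches matched a representative of the group at these settings. An HNF4α peak in at least 2 libraries lay at 209 of them (8.42%), at 11.7% of the 1483 with the core and at 3.60% of the 999 without it. The peaks were called from uniquely aligned reads, which cover repeated sequence less well, and the part of this in the missing marks was not tested.

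The nearest protein-coding gene was taken for each site by its TSS. The 1435 sites had 1269 nearest genes, of which 483 had no HNF4α site with H3K27ac nearest to them and 786 also had such a site. Most genes, 1133, had a single site. Those with the most were Auts2 with 5, and Cd83, Dynlrb2 and Fat1 with 4 each. Acvr2a, Ankrd55, Anks1b and Atp6ap1l followed with 3 each, named in alphabetical order among the 25 genes with at least 3. The 5 sites near Auts2, a gene of neural development, all had H3K4me1 in 12 of 12 libraries and lay 53233 to 656394 bp from its TSS. Levels of RNA are given as RPKM, the read count scaled to exon length and to the library total after TMM adjustment. In the recipients Auts2 had 0.941 to 2.06 RPKM over the 12 libraries, Fat1, an atypical cadherin, 8.32 to 19.6 and Cd83, a surface protein of mature dendritic cells, 2.75 to 6.70. Dynlrb2, a dynein light chain, had 0.0463 to 0.538, and Ankrd55, Anks1b and Atp6ap1l did not exceed 0.287. Acvr2a, an activin receptor, had a median of 5.17. The genes with the most sites thus ranged from expressed to close to 0. Each of them was also nearest to HNF4α sites with H3K27ac. These numbered 11 for Auts2, 10 for Cd83, 6 for Dynlrb2, 17 for Fat1 and 12 for Acvr2a. For Ankrd55, Anks1b and Atp6ap1l they numbered 5, 1 and 2.

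The recipients' RNA-seq was labelled colon epithelium, and the 8 epithelial markers (Epcam, Krt8, Krt19, Krt20, Cdh1, Vil1, Cdx2 and Lgals4) summed to 4986 to 7634 RPKM per library. The 8 smooth muscle markers summed to 492 to 3237, the 8 fibroblast markers to 146 to 766, the 8 leukocyte markers to 93.6 to 267 and the 8 endothelial markers to 7.60 to 24.4. Markers of other tissue layers were thus detected in every library. H3K27ac at the gene starts was found in all 23 lists for 8 of 8 epithelial markers and for none of the others, and the number of markers with it in no list was 5 of 8 for leukocytes and 4 of 8 for each of the other 3 lists. Genes of the smooth muscle list were nearest to 4 of the sites without H3K27ac, those of the fibroblast list to 1 and those of the other 3 lists to none. Of HNF4α sites with H3K27ac, 2 were nearest to smooth muscle markers, 11 to fibroblast, 10 to endothelial, 1 to leukocyte and 44 to epithelial markers.

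Genes nearest to these sites alone were at a low level. The median over 408 such genes that matched the count table was -0.69 ± 0.33 log2(RPKM + 0.1) (SD, n = 12), with values from -1.17 in HFDHFB replicate 1 to -0.11 in LFDHFB replicate 3. The 0.1 added on this scale makes differences of genes near 0 look smaller. Genes nearest to HNF4α sites with H3K27ac alone (6896 matched) had 2.83 ± 0.06, from 2.76 to 2.93. Genes nearest to both (708 matched) had 1.94 ± 0.07, and genes nearest to no such site (10743 matched) had -1.20 ± 0.23. The first class lay below the second in 12 of 12 libraries, by -3.52 ± 0.37 on the log2 scale (two-sided exact sign-flip permutation test, p = 0.000488, adjusted p = 0.000781). The rule split these classes by H3K27ac, a mark of active promoters, so this gap is not independent of the rule. With sites within 5 kb of a TSS left out of both classes, the gap was -2.36. The first class lay above genes with no site in 12 of 12 libraries, by 0.51 ± 0.11 (same test, exact p = 0.000488, adjusted p = 0.000781). A level of at least 1 RPKM was reached by 41.0% ± 3.48 of the first class, 78.1% ± 0.631 of the second and 40.6% ± 1.45 of genes with no site (SD, n = 12), so by this measure the first class and genes with no site were within each other's spread. By H3K4me1 at the site, for which no test was made, the median was -1.31 ± 0.35 for genes of sites with it in 12 libraries, -0.44 ± 0.31 in 1 to 11 and -0.76 ± 0.36 in none.

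**Figure D5:**
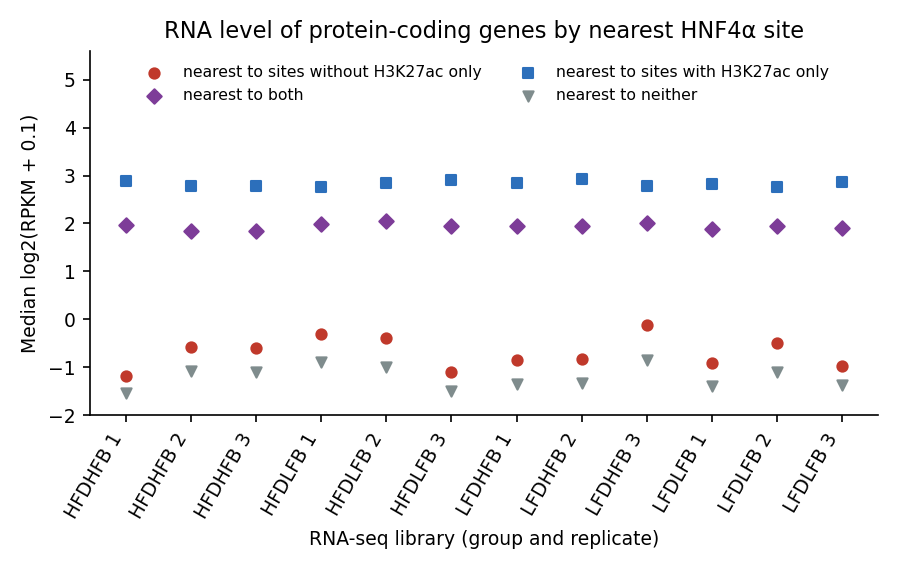
The x axis lists the 12 RNA-seq libraries of the recipients and the y axis gives the median log2(RPKM + 0.1) of protein-coding genes by the HNF4α site nearest to them. In every library, genes nearest to sites without H3K27ac only (red) lie from -1.17 to -0.11, below genes nearest to sites with H3K27ac (blue) and above genes nearest to neither (grey).

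Across libraries, the level of these genes moved with markers of smooth muscle and endothelium and against those of epithelium. Across the 12 libraries their median correlated with the log2 summed level of smooth muscle markers (Pearson's r = 0.723, permutation p = 0.00806, adjusted over 5 marker lists 0.0134, Spearman's rho = 0.657, permutation p = 0.0234, and r = 0.759 without the 2 farthest libraries). For endothelial markers r was 0.742 (permutation p = 0.00475, adjusted 0.0119, rho = 0.748, permutation p = 0.00703, and 0.587 without the 2 farthest). For epithelial markers r was -0.753 (permutation p = 0.00372, adjusted 0.0119, rho = -0.699, permutation p = 0.0139, and -0.585 without the 2 farthest). Fibroblast markers, with r = 0.530 (permutation p = 0.0768, rho = 0.580, permutation p = 0.0528, and 0.252 without the 2 farthest), and leukocyte markers, with r = -0.0213 (permutation p = 0.947, rho = -0.0280, permutation p = 0.940, and -0.0491), did not pass the threshold. With each group centred on its mean, which was added after seeing the data, r was 0.928 for smooth muscle (exact permutation test within groups, 1296 arrangements, p = 0.00463, adjusted p = 0.0231). It was 0.779 for endothelium (exact p = 0.0262, adjusted p = 0.0527), -0.757 for epithelium (exact p = 0.0316, adjusted p = 0.0527), 0.567 for fibroblasts (exact p = 0.0872, adjusted p = 0.109) and -0.0493 for leukocytes (exact p = 0.908, adjusted p = 0.908). Within groups, the relation to smooth muscle markers thus passed the adjusted threshold and the other 4 did not. The part of these markers in the level was not tested. Genes nearest to no HNF4α site were also lowest in HFDHFB replicate 1 (-1.54) and highest in LFDHFB replicate 3 (-0.849). Their relation to the markers was not tested, so these relations are not shown to be particular to genes nearest to the sites. Fewer cells of a type and less RNA per cell cannot be told apart in these bulk samples.

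Among known genes of the tissue, 6 of 28 intestinal transcription factors and nuclear receptors were nearest to at least 1 site: Klf4, Tcf7l2, Atoh1, Hes1, Rxra and Prdm1. This is 21.4%, against 5.71% of all 22232 protein-coding genes, and 27 of the 28 were also nearest to an HNF4α site with H3K27ac, against 38.5% of all genes. Klf4, a factor of goblet cells and surface colonocytes, had 193 to 400 RPKM. Its sites without H3K27ac lay 54457 and 467306 bp from its TSS, with H3K4me1 in 0 and 3 of 12 libraries, beside 30 sites with H3K27ac. The sites near Tcf7l2, the Wnt effector, Atoh1, the secretory lineage factor, Hes1, the Notch target, and Prdm1 each had H3K4me1 in 12 of 12 libraries. The site near Rxra, a partner of nuclear receptors, had it in none. The Tcf7l2 site lay 31 bp from an H3K27ac peak. These genes had 5.62 to 10.7 RPKM for Tcf7l2, 14.3 to 30.0 for Atoh1, 13.0 to 35.4 for Hes1, 28.9 to 38.9 for Rxra and 0.439 to 1.19 for Prdm1.

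Of 18 genes of lipid handling, Apob and Fabp2 (11.1%) were nearest to a site. Apob encodes the structural apolipoprotein of chylomicrons and Fabp2 the intestinal fatty acid binding protein. The Fabp2 site had HNF4α in 3 libraries and no H3K4me1, and the gene had 93.1 to 705 RPKM. Apob had 11.6 to 34.4 RPKM, and of its 2 sites the one 113 kb away had HNF4α in 4 libraries and no H3K4me1. Of 18 brush border genes, Anpep, Sis and Treh (16.7%) were nearest to a site. These encode digestive hydrolases of the small intestine, aminopeptidase N, sucrase-isomaltase and trehalase. The Treh site, printed above, lay 14.4 kb upstream of a gene at 0.0236 to 0.426 RPKM. The Sis site, 8924 bp from the TSS, had H3K4me1 in 12 of 12 libraries, and Sis had 0.0746 to 5.89 RPKM in 11 libraries and 29.0 in LFDHFB replicate 3. Anpep had 1.68 to 4.51 RPKM. HNF4α sites with H3K27ac were also nearest to each of these genes: 11 for Apob, 6 for Fabp2, 2 for Anpep, 3 for Sis and 2 for Treh.

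Of 19 HNF4α genes of liver in the annotation, Apoh and G6pc (10.5%) were nearest to a site. G6pc, the catalytic subunit of glucose-6-phosphatase, which releases glucose from liver and kidney, had 2 sites. One covered the gene start, 91 bp downstream of the TSS, with HNF4α in 2 libraries and H3K4me1 in 11 of 12 libraries. The other, 11.5 kb upstream, had HNF4α in 3 libraries and H3K4me1 in 12 of 12 (chr11:101217363-101217482, plus strand).
G6pc upstream site: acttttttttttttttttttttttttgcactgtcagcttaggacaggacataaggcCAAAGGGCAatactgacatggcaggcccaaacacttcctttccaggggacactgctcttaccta
G6pc was at 0 in 10 of the 12 RNA-seq libraries and at 0.0269 RPKM at most, with no more than 0.0648 CPM, counts scaled to the TMM-adjusted library total, which is 3 counts or fewer in a library. Its gene start had HNF4α and H3K4me1 in the mice on the long-term diets, and its RNA was at or near 0 at this depth in the recipients. G6pc was also the nearest gene of 1 HNF4α site with H3K27ac, and Apoh of 9. Apoh, a plasma glycoprotein of liver, had 0.158 to 0.389 RPKM. None of 12 HNF4α genes of kidney and islet was nearest to a site.

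No gene nearest to the sites passed the test between the recipients' groups. Of 934 nearest genes that passed the expression filter, 0 were called in each of the 4 comparisons at an adjusted p of 0.05 (edgeR quasi-likelihood test), as were 0 of all 15893 genes tested (0%). At an unadjusted p under 0.05 there were 94 genes for HFDHFB against HFDLFB, 29 for LFDHFB against LFDLFB, 52 for HFDHFB against LFDHFB and 65 for HFDLFB against LFDLFB. These are 10.1%, 3.10%, 5.57% and 6.96% of the 934, beside 9.07%, 3.72%, 7.46% and 5.33% of all genes tested. Of the genes of the 5 lists, 0 were called in each comparison. DESeq2 called 5 nearest genes in the first comparison (at an adjusted p of 0.05 it called 0.486% of all genes), 5 in the third (0.883% of all genes) and 0 in the other two (0% and 0.0523% of all genes). The first 5 were lower in HFDHFB: Gpc3, Sik2, Egfl6, Fgf9 and Dcn. Dcn, decorin, is among the fibroblast markers. Those markers summed to 227, 266 and 241 RPKM in the HFDHFB libraries and to 766, 642 and 269 in the HFDLFB libraries, lower in HFDHFB without overlap, and their part in these 5 calls was not tested. In the third, Slc2a5, the fructose transporter, Gramd1b, Tbcel and Asap1 were lower and Snrpe higher in HFDHFB. The first 5 had log2 fold changes of -2.08 to -0.87, and the other 5 of -1.07 to 0.43, with adjusted p-values in edgeR of 0.495 and 0.300, respectively. The comparisons share groups and so share libraries.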

How the data were processed

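ChIP-seq peak lists of HNF4α (4), H3K4me1 (12) and H3K27ac (23) and 1 RNA-seq table (12 libraries) were used. The members and lists were chosen with earlier results of these data known. The authors aligned ChIP-seq reads to mm9, kept unique, de-duplicated reads and called peaks with SICER (histone marks) or HOMER (HNF4α). The deposited lists give peak starts and ends, with no score or depth. The deposited RNA-seq values are raw read counts per gene, from STAR 2.5 and featureCounts 1.5.0-p1 per the submitters' processing notes, which also name Bowtie 0.12.8 and Picard 1.110.

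Sites were compared with the NCBIM37 sequence and GENCODE vM1, on 200 bp windows. RPKM used the merged exon length of genes matched by symbol (83.8% of the table) and a pseudocount of 0.1. Intervals are 95% Clopper-Pearson and cover counting error only. Exact sign-flip or stratified permutation tests compared libraries, and edgeR 4.0.16 (TMM, filterByExpr, quasi-likelihood, 4 groups in 1 fit, Benjamini-Hochberg) compared genes, with DESeq2 1.42.0 as alternative. Similar sequences were grouped with blastn 2.17.0. R 4.3.3, Python 3.11.15, numpy 2.4.6, scipy 1.17.1 and matplotlib 3.10.9 were used, and the steps were tested on simulated data.

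Named sites were, by rule, the 4 farthest from H3K27ac of 2 classes of H3K4me1 (12 or 0 libraries) with HNF4α in all 4, up to 6 promoter sites nearest to the TSS with HNF4α in at least 3, and 2 diet-exclusive sites per diet. Named genes were the 8 nearest to the most sites, genes of 5 lists nearest to any, and genes called in RNA-seq. Sequence-group examples, motifs singled out and DESeq2 genes were chosen after their values were seen. ChIP input libraries were not used here, and 1 named promoter site is not reported here.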

Additional observations from a re-analysis of the deposited data

Results flagged for a closer look

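At HNF4α sites with H3K27ac, the diet effect on the share with H3K4me1 (HFD minus LFD) was 1.38 percentage points higher in females than in males (two-sided exact permutation test of the difference with 400 arrangements, p = 0.015, not adjusted). Diets were permuted within each sex, so this tests against no diet effect in either sex and not against equal effects. The diet effect was 0.35 percentage points in females and -1.03 in males, which have 3 libraries per diet. Without HFD male replicate 2, the library with the lowest share, the difference was 0.813 percentage points (exact permutation test, p = 0.025). It did not pass the threshold without LFD male replicate 2 (1.27, exact p = 0.09) or LFD male replicate 3 (1.39, exact p = 0.065). These values were added after seeing the data. At sites without H3K27ac the same difference was 7.85 percentage points (exact permutation test, p = 0.1) and 4.01 without HFD male replicate 2 (exact p = 0.21). The Mb covered by each library's H3K4me1 peaks moved with the share at sites without H3K27ac, and its part in the difference was not tested.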

How the results depend on the processing

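The number of HNF4α sites without H3K27ac, 1435, became 2284 when only the 6 H3K27ac lists of males on the long-term diets were used, 610 with a peak in at least 3 HNF4α libraries and 222 with a peak in all 4, and ran from 781 (without LFD replicate 1) to 1501 with single libraries left out. The share with CAAAGNNCA, 42.1%, was 34.4% in a window of 100 bp (22.1% at sites with H3K27ac), 47.0% with at least 3 HNF4α libraries (32.7%) and 39.1% without the largest sequence group (27.5%), an alternative chosen after seeing the data. With single libraries left out, the H3K4me1 difference between diets ran from 0.319 to 3.25 percentage points and that between sexes from 3.43 to 6.36. Both upper values were without HFD male replicate 2 (exact permutation tests, p = 0.035 and 0.005), and the cause was not tested. DESeq2 called 5 nearest genes for HFDHFB against HFDLFB and 5 for HFDHFB against LFDHFB, where edgeR called 0, and the cause was not tested. The difference in H3K4me1 from sites with H3K27ac stayed between -36.0 and -26.2 percentage points over 18 alternatives, and that in RNA level between -4.13 and -2.36 on the log2 scale over 17, each with its direction and side of the threshold. With a replicate block, the H3K4me1 diet difference was 1.32 percentage points (exact permutation test with 64 arrangements, p = 0.656), and edgeR called 0 nearest genes in each comparison. Deviations of same-numbered libraries correlated at -0.0711 to 0.0487 for H3K4me1 and -0.591 to 0.451 for RNA, so the numbers were not taken to pair samples. Peak lists without scores limit these results to the presence or absence of a peak, and weak acetylation below the peak threshold cannot be seen.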
